A study of Mus musculus with 3 samples.

Results

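The comparison is between skeletal muscle RNA of a homozygous and of a heterozygous Rbm20 knock-in mouse, both at 12 weeks of age. The knock-in is the missense change I538T, made by CRISPR/Cas editing, which the homozygous mouse carries on both copies of Rbm20 and the heterozygous mouse on 1. A wild-type library of the same age is given beside them as a value only, and its RNA was handled with the same kits. The muscle that was taken is not named in the labels, and each genotype is 1 library, so no p-value is given and a difference describes these 2 libraries. The members were all genes with a name that the table had not merged with a neighbour, 52071 gene IDs with 429043 of the 469293 exonic parts. The table cuts each exon at every boundary that any transcript uses, and the pieces are the exonic parts. Inclusion reads, which lie in a part, summed to 215923385 in homozygous, 265358773 in heterozygous and 239837797 in wild-type muscle. Exclusion reads, which span a part by a splice junction, summed to 51998453, 58640621 and 53925304 in the same order. The 10 genes with most reads took 29.1% of inclusion reads in homozygous, 21.7% in heterozygous and 23.7% in wild-type muscle, and 7620, 8679 and 8458 genes reached 5 RPM (inclusion reads of a gene per 1000000 of the library). Markers of skeletal muscle were abundant in all 3 libraries, with Acta1, the skeletal actin, at 35892, 27232 and 27366 RPM. The atrial gene Myl7 and the heart hormone gene Nppa were at or under 0.0926 RPM in each library. The whole heart list, with these 2, summed to 8.75 RPM in homozygous, 13.3 in heterozygous and 29.1 in wild-type muscle. Reads of the Y-linked genes Ddx3y and Eif2s3y were present in all 3 libraries.

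RBM20 is an RNA-binding protein of heart and skeletal muscle that binds UCUU motifs, mostly in introns, and represses the inclusion of exons, above all in Ttn. Ttn codes titin, the giant spring of the sarcomere, whose elastic PEVK region is built from many short exons, and a titin that keeps more of them is longer and more compliant. Skeletal muscle is a mix of slow fibres, with Myh7 myosin and oxidative metabolism, and of fast fibres with Myh2, Myh1 or Myh4 myosin, each with its own troponins and light chains. Muscles differ in their share of each fibre type.

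The exons below are the 4 of Ttn whose inclusion was furthest higher in homozygous muscle, the 1 Ttn exon that was lower there with well-covered skipping junctions, and one exon each of 8 muscle genes that carry the splicing results. They are written 5′ to 3′ in the sense strand from GENCODE M21 transcripts (GRCm38), with TCTT, the DNA form of the RBM20 motif, in capitals.
Ttn exon 159 (chr2:76836335-76836418, minus strand): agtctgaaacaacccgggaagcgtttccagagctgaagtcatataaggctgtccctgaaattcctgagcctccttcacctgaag
Ttn exon 186 (chr2:76828486-76828569, minus strand): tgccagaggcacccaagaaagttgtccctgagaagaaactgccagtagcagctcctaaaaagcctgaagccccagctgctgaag
Ttn exon 187 (chr2:76828319-76828402, minus strand): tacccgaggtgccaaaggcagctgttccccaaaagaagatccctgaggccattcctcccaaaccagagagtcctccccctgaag
Ttn exon 157 (chr2:76836733-76836813, minus strand): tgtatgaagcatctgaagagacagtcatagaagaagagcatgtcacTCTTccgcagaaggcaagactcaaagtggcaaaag
Ttn exon 171 (chr2:76831788-76831874, minus strand): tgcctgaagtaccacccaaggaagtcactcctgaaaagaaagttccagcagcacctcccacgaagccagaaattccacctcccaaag
Dst (chr1:34301861-34301932, plus strand): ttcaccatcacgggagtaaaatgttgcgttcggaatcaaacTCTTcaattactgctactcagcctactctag
Ank3 (chr10:70008778-70008864, plus strand): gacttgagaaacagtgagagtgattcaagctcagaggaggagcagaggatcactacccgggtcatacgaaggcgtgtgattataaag
Tmed2 (chr5:124543487-124543507, plus strand): gtggtggagactcctgggatg
Neb (chr2:52308686-52308790, minus strand): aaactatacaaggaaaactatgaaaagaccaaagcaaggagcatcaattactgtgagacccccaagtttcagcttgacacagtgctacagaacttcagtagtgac
Nrap (chr19:56344012-56344125, minus strand): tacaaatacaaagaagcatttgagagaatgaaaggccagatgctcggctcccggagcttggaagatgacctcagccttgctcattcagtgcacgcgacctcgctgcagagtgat
Mybpc1 (chr10:88554664-88554769, minus strand): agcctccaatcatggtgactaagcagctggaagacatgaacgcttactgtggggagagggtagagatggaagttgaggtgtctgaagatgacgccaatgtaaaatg
Itga7 (chr10:128941822-128941941, plus strand): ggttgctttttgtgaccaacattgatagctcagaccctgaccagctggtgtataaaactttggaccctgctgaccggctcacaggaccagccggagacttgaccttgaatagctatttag
Camk2b (chr11:5978399-5978512, minus strand): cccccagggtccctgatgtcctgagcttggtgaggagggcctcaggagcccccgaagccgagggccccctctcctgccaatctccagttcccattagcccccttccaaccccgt
The motif stood once in Ttn exon 157, once in the Dst exon and not in the other exons printed. In coding exons of 84 bases in other genes, 80 of 305 held it (26.2%), and among 84-base Ttn parts that were included more in homozygous muscle, 2 of 11. The introns, where RBM20 is known to bind, were not analysed here.

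The targeted gene Rbm20 (chromosome 19) had 641 inclusion reads in homozygous, 2866 in heterozygous and 3110 in wild-type muscle, or 2.97, 10.8 and 13.0 RPM. The log2 ratio of the reads, homozygous over heterozygous and scaled to the library totals, was -1.86 (95% counting interval -1.99 to -1.74). The reads were not spread evenly over the gene. Of its 19 parts, 10 had a read in homozygous, 17 in heterozygous and 18 in wild-type muscle. The 767-base coding part had 0 reads in homozygous, 355 in heterozygous and 97 in wild-type muscle, and the 622-base coding part 0, 307 and 177. The 1700-base untranslated part at the 3′ end held 436, 609 and 1350 reads, so most homozygous reads were there. In all 16 parts with at least 20 reads in one of the knock-in libraries, the scaled reads were lower in homozygous muscle. The table does not separate reads of the edited allele from those of the other allele.

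Gene levels were compared over 9003 genes with 5 or more RPM in at least 1 of the 2 knock-in libraries, and a gene was called when RPM + 1 differed at least 2-fold. In homozygous muscle 132 genes were higher (1.47% of those measured) and 1322 were lower (14.7%), 16.2% in all. The median log2 ratio of all genes was -0.28, homozygous over heterozygous, with a range of -1.51 to 0.60 from the 5th to the 95th percentile, and list medians below are also given relative to it. The split into higher and lower genes depended on the scaling. With TMM factors (which trim extreme genes) 312 of 8932 genes were higher and 752 lower. The counts were 248 and 846 with median-of-ratios factors, and 310 and 727 with the median of all genes set to 0. The share that was lower also moved with the level, from 24.6% of genes with a mean under 10 RPM to 5.26% at 1000 RPM or more.

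**Figure D1:**
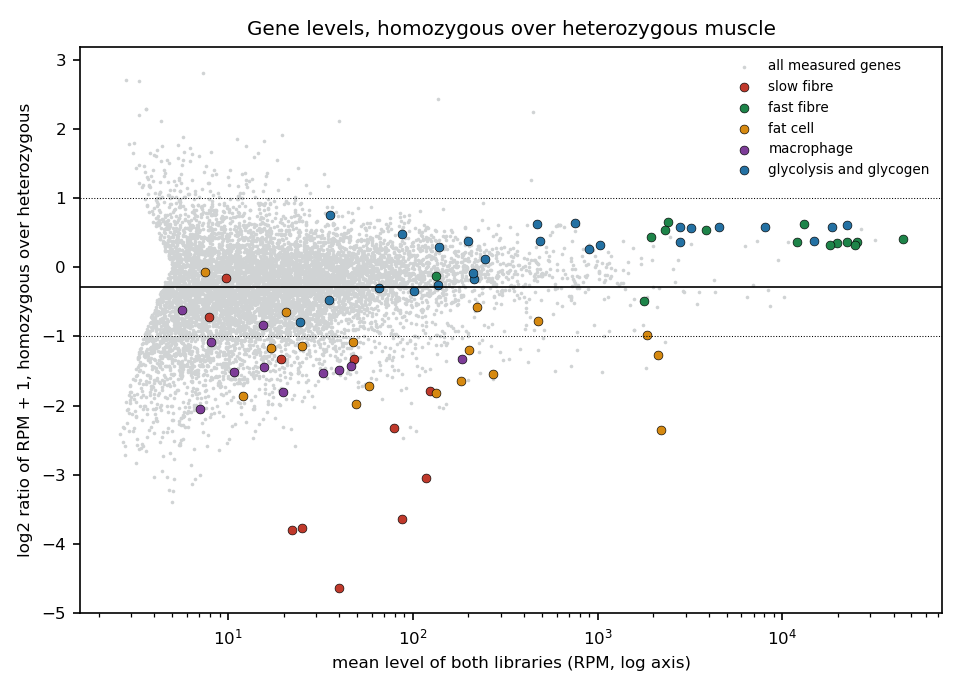
Each point is a gene, with the mean RPM of the homozygous and heterozygous libraries on a log axis (x) and the log2 ratio of RPM + 1, homozygous over heterozygous (y); dotted lines mark 2-fold and the solid line the median of all genes. Slow-fibre genes reach -4.63 and most lie below the lower dotted line, while 12 of the 14 fast-fibre genes lie above 0.

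Genes of slow fibres were the furthest lower in homozygous muscle. Of 11 measured members, 9 were lower, none was higher and Myl6b and Casq2 were not called, against 14.7% lower over all genes. Their median log2 ratio was -2.32, or -2.04 relative to all genes, and 9 were lower under each scaling. Their levels summed to 177 RPM in homozygous, 986 in heterozygous and 2427 in wild-type muscle. In bulk RNA, fewer cells of a type and less RNA per cell cannot be told apart.

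The thin filament of slow fibres is switched by its own troponins. Tnnc1, slow troponin C that binds calcium, had 2.15 RPM in homozygous, 77.2 in heterozygous and 214 in wild-type muscle, a log2 ratio of -4.63 for homozygous over heterozygous. Tnni1, slow troponin I that holds contraction off at rest, had 2.57, 48.0 and 160 RPM, a log2 ratio of -3.78. Tnnt1, slow troponin T that ties the complex to tropomyosin, had 12.1, 163 and 555 RPM, a log2 ratio of -3.64. For all 3 the order was the same, with homozygous lowest and wild type highest. Tpm3, the slow tropomyosin, had 54.9, 193 and 431 RPM.

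The thick filament genes followed the same order. Myh7, the slow myosin heavy chain, had 2.13 RPM in homozygous, 42.5 in heterozygous and 179.7 in wild-type muscle, and some of its reads could be shared with the cardiac myosin gene Myh6, which had 1.94, 5.24 and 16.9 RPM. Myl3, a slow essential light chain, had 24.4, 210 and 278 RPM, and Myl2, the slow regulatory light chain, 25.7, 133 and 455 RPM. The calcium pump Atp2a2, of slow and heart muscle, had 10.6, 28.3 and 51.8 RPM. Casq2, the slow and cardiac calsequestrin, which stores calcium, was the closest, at 9.21, 10.4 and 14.4 RPM.

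For Tnnc1 and Tnnt1, those among the 4 furthest slow-fibre genes with 1 listed start, the 250 bases before the start are given from RefSeq (GRCm38.p6), with the E-box CANNTG, the motif of the MyoD family, in capitals.
Tnnc1 (chr14:31208062-31208311, plus strand): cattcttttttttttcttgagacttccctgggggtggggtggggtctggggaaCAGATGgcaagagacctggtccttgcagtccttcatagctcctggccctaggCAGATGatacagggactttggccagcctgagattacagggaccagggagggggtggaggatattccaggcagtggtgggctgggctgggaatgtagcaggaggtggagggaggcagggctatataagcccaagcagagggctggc
Tnnt1 (chr7:4515976-4516225, minus strand): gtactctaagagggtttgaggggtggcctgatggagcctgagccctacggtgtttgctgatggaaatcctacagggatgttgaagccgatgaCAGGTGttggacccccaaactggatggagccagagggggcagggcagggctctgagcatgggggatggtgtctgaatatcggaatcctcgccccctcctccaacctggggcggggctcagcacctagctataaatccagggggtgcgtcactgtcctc
CANNTG, which reads the same class of letters on both strands, stood 2 times before Tnnc1 and once before Tnnt1. It was found in 66.2% of all 32851 listed promoters of this length. The MEF2 motif was in neither window and in 2.92% of all. A match is not a binding site.

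**Figure D2:**
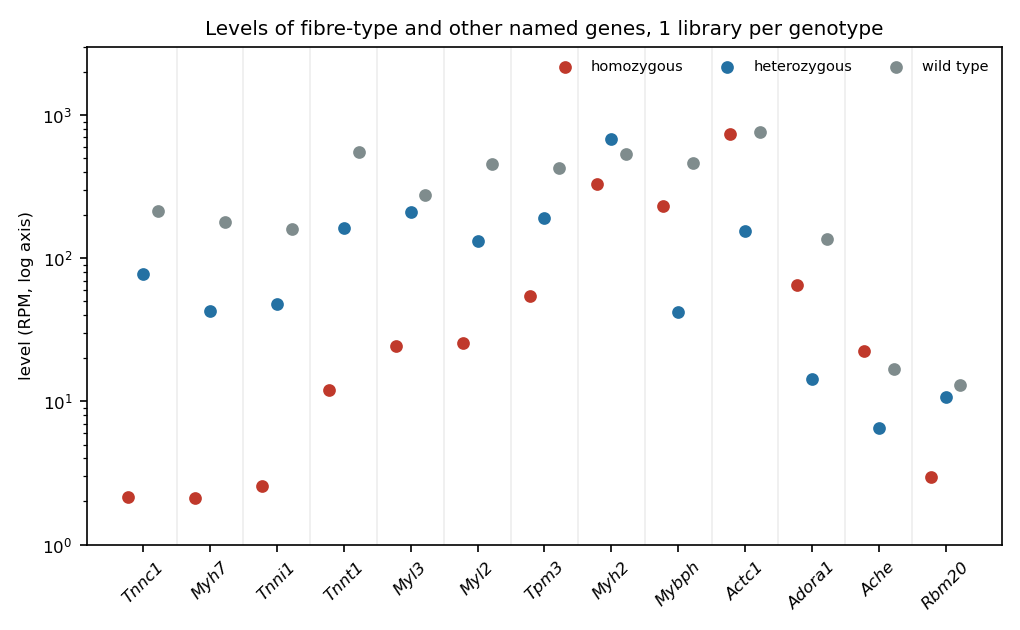
Levels of named genes (RPM, log axis), 1 point per library, in homozygous, heterozygous and wild-type muscle. The slow genes Tnnc1 to Tpm3 are lowest in homozygous muscle, while Mybph, Actc1, Adora1 and Ache are lowest in heterozygous muscle.

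Fast-fibre genes were not called in either direction. All 14 were measured, 12 had a ratio above 0, and the median log2 ratio was 0.36, or 0.65 relative to all genes. Myh4, the fastest myosin heavy chain, had 15941 RPM in homozygous, 10389 in heterozygous and 13839 in wild-type muscle, a log2 ratio of 0.62. Casq1, the fast calsequestrin, had 2945, 1872 and 2069 RPM, a log2 ratio of 0.65. Myh1, of intermediate fast fibres, had a ratio below 0, at 1486, 2094 and 1305 RPM, a log2 ratio of -0.49. Myosin genes share sequence, so reads may be split between them.

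Genes of oxidative fast fibres stood between these lists. Of 9 measured, 3 were lower, against 14.7% lower over all genes, and 1 was lower under TMM scaling. Their median log2 ratio was -0.84, or -0.56 relative to all genes. Myh2, the oxidative fast myosin, had 333 RPM in homozygous, 681 in heterozygous and 538 in wild-type muscle. Ankrd2, a stretch-responsive protein of slow fibres, had 29.1, 90.2 and 70.5 RPM, and Csrp3, the muscle LIM protein, 23.3, 52.6 and 132 RPM. Mb, the oxygen store myoglobin, had 1259, 2250 and 1991 RPM and was not called.

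**Figure D3:**
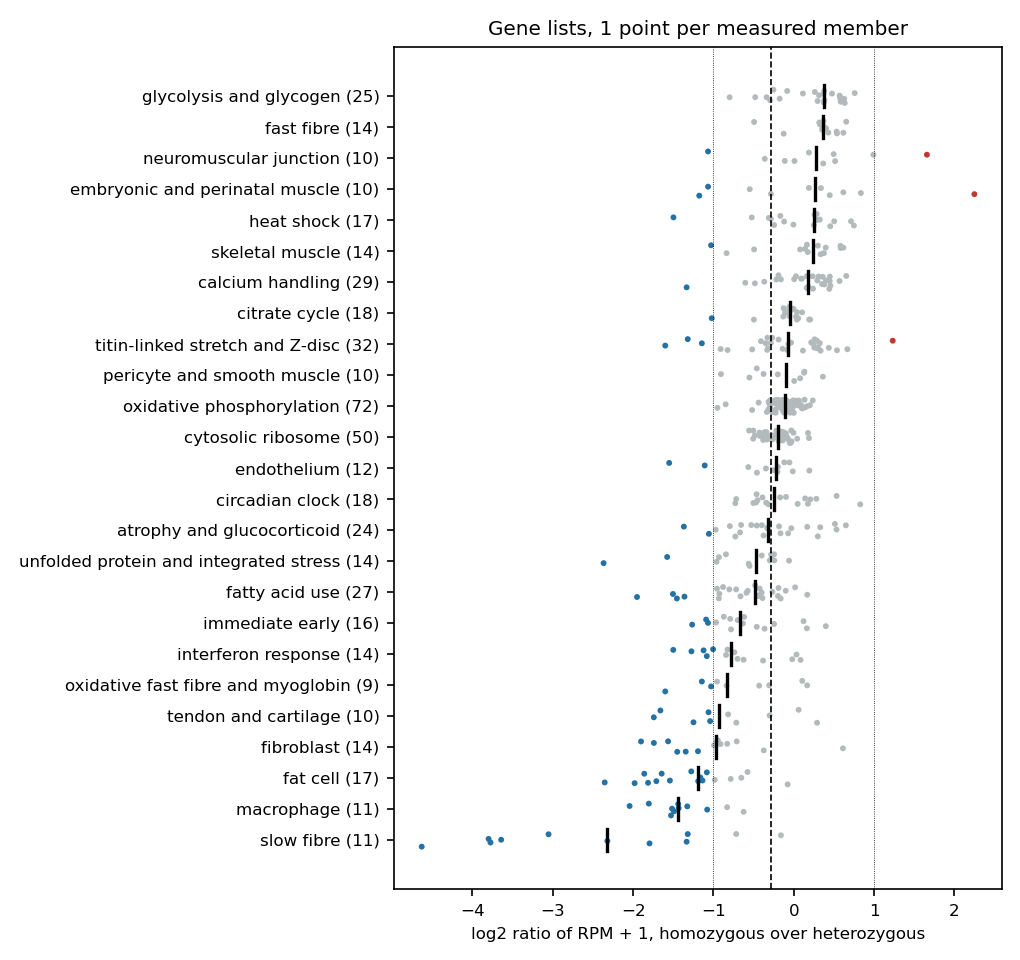
Each point is a measured gene of the list named at the left, with its log2 ratio of RPM + 1, homozygous over heterozygous, for lists with at least 9 measured members, whose number is in brackets; black bars are list medians, the dashed line is the median of all genes, and red or blue points are at least 2-fold higher or lower. Among these the slow-fibre, macrophage and fat-cell lists have the lowest medians, at -2.32, -1.44 and -1.19.

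Lists of energy metabolism had few calls. None of 25 measured genes of glycolysis and glycogen was called, yet their median log2 ratio was 0.38, or 0.66 relative to all genes. Aldoa, muscle aldolase, had 27028 RPM in homozygous, 17785 in heterozygous and 20439 in wild-type muscle, a log2 ratio of 0.60. Fbp2, the muscle fructose bisphosphatase, had the largest ratio of the list, 0.76, at 45.1, 26.3 and 29.1 RPM, and was called under TMM scaling. None of 72 oxidative phosphorylation genes was called, with a median of -0.11, or 0.17 relative to all genes, so its direction turned when the median of all genes was set to 0. Of 27 genes of fatty acid use, 4 were lower and none was higher, a share close to the 14.7% lower over all genes, with a median of -0.48, or -0.20 relative to all genes. Among them were Ppara, the fatty acid sensing receptor, at 1.76, 9.67 and 5.68 RPM, Lpl, which frees fatty acids from blood lipids, at 307, 873 and 760 RPM, and Acads, which starts the oxidation of short-chain fatty acids, at 17.4, 49.5 and 31.4 RPM. Lpl is also expressed by fat cells, and 12 of 17 fat-cell markers were lower, as given next.

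Markers of other cells were lower in homozygous muscle in several lists. Over all genes 14.7% were lower, and under TMM scaling 752 of 8932 genes. Of 17 fat-cell markers 12 were lower, with a summed level of 4283 RPM in homozygous, 11579 in heterozygous and 8002 in wild-type muscle, and 7 were lower under TMM scaling. Adipoq, the hormone adiponectin, had 123, 282 and 176 RPM. Cfd, the fat-cell protease adipsin, had 725, 3709 and 1028 RPM, so heterozygous was the library apart. Of 11 macrophage markers 9 were lower (8 under TMM scaling), with a summed level of 210 RPM in homozygous, 563 in heterozygous and 444 in wild-type muscle. Csf1r, the receptor that keeps macrophages alive, had 8.24, 31.3 and 25.9 RPM.

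Connective tissue and nerve followed. Of 14 fibroblast markers 6 were lower (5 under TMM scaling), against 14.7% of all genes. The fibroblast markers summed to 2707 RPM in homozygous, 6399 in heterozygous and 5274 in wild-type muscle. Dcn, the matrix proteoglycan decorin, had 470, 1075 and 829 RPM. All 4 measured Schwann cell markers were lower (3 under TMM scaling), and Pmp22, a myelin protein, had 25.7, 85.0 and 65.9 RPM. Tendon markers were lower for 5 of 10 (2 under TMM scaling), and their sum was 216 RPM in homozygous, 364 in heterozygous and 116 in wild-type muscle, with Comp, a cartilage matrix protein, at 7.60, 27.8 and 5.98 RPM. Endothelial markers were lower for 2 of 12 (1 under TMM scaling), close to the 14.7% of all genes, and for pericytes and smooth muscle 0 of 10 were called. Neutrophil markers summed to 96.7, 122 and 13.4 RPM and red cell markers to 4494, 8792 and 7159 RPM. Lists of liver, skin, heart and lymphocytes had at most 4 measured members each. Of 2 measured lymphocyte markers 1 was higher and none lower, against 1.47% higher over all genes. The lymphocyte list summed to 152 RPM in homozygous, 111 in heterozygous and 372 in wild-type muscle. What part these cells had in the other differences was not tested.

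The 12 genes furthest higher in homozygous muscle, at 20 RPM or more in one of the 2, had log2 ratios of 1.32 to 2.43. Mybph, a myosin-binding protein of the thick filament, had 231 RPM in homozygous, 42.0 in heterozygous and 465 in wild-type muscle. Actc1, the cardiac actin that fetal skeletal muscle also uses, had 738, 154 and 758 RPM. Adora1, an adenosine receptor, had 65.3, 14.4 and 137 RPM. In these 3 genes the heterozygous library was the low one and wild type the highest. Ache, the acetylcholine esterase of the nerve-muscle synapse, had 22.6, 6.48 and 16.7 RPM, the one called higher gene among 10 measured genes of that synapse (2 were higher under TMM scaling), where Ncam1 was lower (not under TMM scaling). Sema4d, a guidance signal, had 31.5, 7.65 and 19.03 RPM, and Prkcd, a protein kinase C, had 25.1, 6.38 and 15.5 RPM. The others were Pak1, Yars2, Exosc9, Ift122, F830016B08Rik and Snrnp40, and in all 12 heterozygous had the lowest of the 3 values. The 12 were chosen by the ratio of homozygous to heterozygous, so only the place of wild type was not set by that choice. Adora1 reads were not even over the gene, with 5 of its 9 parts higher and 4 lower in homozygous muscle. Its log2 ratio was 2.11, and 1.32 with levels per length. Mybph and Adora1 both lie on chromosome 1, and whether reads of one were counted in the other was not tested.

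The 12 furthest lower were 5 slow-fibre genes, described above, and Mup17, Mup16, Mup19, Ces1f, Fyn, Cfd and Ccl8, with log2 ratios of -2.34 or below. The Mup genes code urinary carrier proteins and Ces1f a carboxylesterase, both from families of near-identical copies, so their values are uncertain. Fyn, a tyrosine kinase, had 3.89 RPM in homozygous, 24.2 in heterozygous and 12.5 in wild-type muscle, lower in all 22 of its parts with enough reads. Ccl8, a chemokine that draws monocytes, had 6.56, 37.2 and 9.11 RPM. In all 12 the homozygous value was the lowest of the 3, where the choice by ratio had already set it below the heterozygous value.

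Genes tied to titin's role as a stretch sensor and to the Z-disc had few calls. Of 32 measured, 1 was higher, 3 were lower and 28 were not called, against 1.47% higher and 14.7% lower over all genes. The higher one was Ankrd1, the cardiac ankyrin repeat protein that binds titin, at 7.01 RPM in homozygous, 2.41 in heterozygous and 2.31 in wild-type muscle. The lower ones, Ankrd2, Csrp3 and Myoz2, were also in the fibre-type lists. Ttn itself had 6973, 5661 and 7912 RPM, a log2 ratio of 0.30 for homozygous over heterozygous. Neb, the thin filament ruler nebulin, had 3578, 2839 and 2983 RPM. Of 14 interferon genes 5 were lower, a larger share than the 14.7% of all genes, but 1 once the median of all genes was set to 0. Of 16 immediate early genes 3 were lower, close to that background, and 0 under the same setting. None of 50 cytosolic ribosome genes and none of 18 clock genes was called (1 clock gene under TMM scaling).

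Splicing was compared by PSI (percent spliced in), which weighs the reads in a part against those that skip it, from 0 when it is always skipped to 100% when it is always kept. In 88393 parts with at least 100 reads in both knock-in libraries, 1978 differed by 20 points or more (2.24%), 1079 higher (1.22%) and 899 lower (1.02%) in homozygous muscle. They fell in 1095 of 12576 genes (8.71%). A junction was called supported when exclusion reads per base reached 5% of the level of the gene in at least 1 of the 2 libraries. Of 24482 such parts, 1058 were higher (4.32%) and 788 lower (3.22%), 7.54% in all. Among the called parts, 722 were whole internal coding exons, of which 52.8% had a length that is a multiple of 3, which keeps the reading frame. Without Ttn, whose neighbouring parts share junctions, it was 45.9% of 619, against 41.7% of 8295 such exons with an exclusion read in either library. The exclusion counts of 410 called parts equalled those of a part of another gene on the chromosome, so their junction reaches across genes. Many called parts rested on a junction seen in 1 of the 2 libraries only. Of the 1079 higher parts, 370 had no exclusion read in homozygous muscle, and of the 899 lower parts, 345 had none in heterozygous muscle. A part with no exclusion read in a library has a PSI of 100% there.

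In Ttn (chromosome 2, minus strand), 116 of 391 measured parts were called, 34 higher and 82 lower in homozygous muscle. The 34 higher parts lay in one stretch, 33 of them in exons 143 to 191 of a 347-exon transcript and 1 in an exon of another transcript, and covered 2721 bases. All 34 had a supported junction. Their PSI ran from 24.0% to 73.3% with a median of 49.9% in homozygous, from 0.37% to 53.3% with a median of 12.0% in heterozygous, and from 20.4% to 59.9% with a median of 28.4% in wild-type muscle. They rested on 1512 to 5561 exclusion reads in homozygous and 2489 to 5372 in heterozygous muscle. Neighbours share reads, and the 34 held 29 different pairs of exclusion counts.

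Within the stretch the higher parts came in 4 runs of exons. In exons 143 to 146 heterozygous muscle still held part of the exons, with exon 144 at 63.8% in homozygous, 30.1% in heterozygous and 40.0% in wild-type muscle. Toward the end of exons 150 to 159 the PSI was lower in both libraries, and in the heterozygous one it was close to 0. Exon 153 was at 68.2%, 41.6% and 45.3%, exon 155 at 47.8%, 15.2% and 30.7%, and exon 159, printed above, at 46.9%, 2.93% and 30.04%. The difference in exon 159, 44.0 points with a bound nearest 0 of 42.8, was the largest increase in the gene. In exons 165 to 169 the heterozygous library was nearly without the exons. The 78-base part of exon 165 was at 33.9%, 0.565% and 26.6%, and exon 168 at 27.3%, 1.71% and 24.5%, so homozygous and wild type were close there. Exons 183 to 191 were included more in both libraries toward the end of the run, with exon 184 at 35.9%, 0.888% and 27.2%, exon 186 at 49.5%, 6.30% and 33.4%, and exon 191 at 50.2%, 18.9% and 23.4%. In 15 of the 34 parts the heterozygous PSI was under 5%, with a highest value of 4.18%, while homozygous had 24.0% to 46.9% and wild type 20.4% to 30.04% in the same parts.

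**Figure D4:**
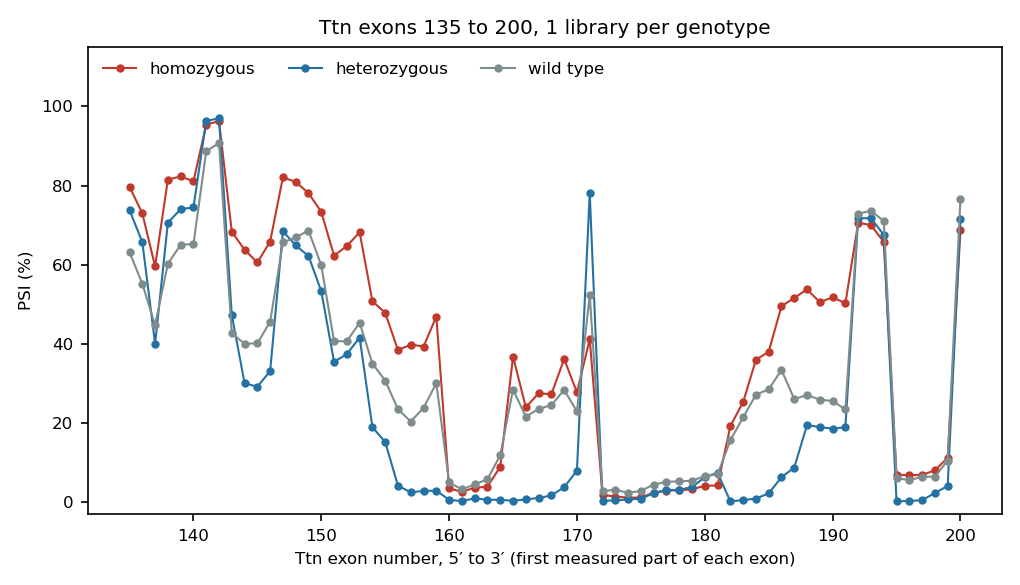
PSI of Ttn exons in and around the stretch by exon number, in the homozygous, heterozygous and wild-type libraries, with the first measured part of each exon. The homozygous line lies above the heterozygous one over exons 143 to 159, 164 to 170 and 182 to 191, the 3 lines all lie close to 0 over exons 172 to 181, and exon 171 is highest in heterozygous muscle.

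Between the runs lay exons that were not called. Exons 147 to 149 were mostly kept, at 78.1% to 82.1% in homozygous and 62.2% to 68.5% in heterozygous muscle, while most of the others were left out by both libraries. Exons 160 to 163 were at 2.57% to 3.91% in homozygous and at 0.296% to 0.957% in heterozygous muscle, and exons 173 to 181 at 1.13% to 4.22% and 0.459% to 7.42%. Exon 182 was just short of the call, at 19.2% in homozygous, 0.199% in heterozygous and 15.6% in wild-type muscle. Of the 61 measured parts between the ends of the stretch, 34 were higher, 26 were not called and 1 was lower. That one, exon 171, was at 41.2% in homozygous, 78.1% in heterozygous and 52.4% in wild-type muscle, a difference of -36.9 points, from 3936, 885 and 3564 exclusion reads. Outside the stretch, 66 parts had a supported junction and none was called, with differences of -18.9 to 19.9 points. Exons 192 and 193, which follow directly, were at 70.6% and 70.0% in homozygous, 71.7% and 71.7% in heterozygous, and 72.9% and 73.6% in wild-type muscle.

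The other 81 lower Ttn parts were of another kind. None had a supported junction, and they rested on at most 127 exclusion reads in homozygous muscle and 57 in heterozygous muscle. In 80 of them the heterozygous library had no exclusion read. They held 3 pairs of exclusion counts, so 38 parts from exon 29 to exon 336 shared one pair, of 65 and 0 reads, and 42 parts from exon 48 to exon 91 another, of 127 and 0. Wild type had up to 176 exclusion reads in these parts. A junction that spans so many parts lowers the PSI of all of them, so their number is no count of separate changes. The bases of the 34 higher parts were 58.4% A or G, against 55.4% in 317 coding Ttn parts outside the stretch. TCTT stood in 17.6% of the 34, which have a median length of 78 bases, and in 47.9% of the 317, which are longer.

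Gene lists gave more called genes than the 8.71% of all genes, but their genes hold more measured parts, a median of 12 to 24 per gene against 3, so the shares of parts are the closer guide. Among RBM20 targets known from heart, 12 of 35 genes had a called part. Without Ttn 19 of 832 parts were called (2.28%), against 2.24% of all parts. The share of all parts counts those of Ttn, unlike the list shares given without Ttn. For the sarcomere and Z-disc it was 11 of 58 genes and, without Ttn, 50 of 1329 parts (3.76%). Costamere and cytoskeleton genes had 13 of 49 genes and 34 of 809 parts (4.2%). For calcium handling it was 7 of 35 genes (1.92% of 626 parts), for splicing regulators 14 of 47 (1.59% of 1071), for genes spliced by MBNL and CELF proteins 14 of 39 (2.55% of 1021 parts without Ttn), and for glycolysis and glycogen 4 of 26 (1.18% of 593). The sarcomere and costamere shares were the furthest above 2.24%, and the sarcomere one counts parts of Myh1 and Myh2, which share sequence.

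Of the RBM20 targets, the cytoskeletal linker Dst had its 72-base exon, printed above, at 90.8% (86.4 to 93.9) in homozygous, 42.0% (36.0 to 48.3) in heterozygous and 64.7% in wild-type muscle. Camk2d, a calcium-dependent kinase, had a part found only in non-coding transcripts at 26.01%, 0% and 15.01%, from 65, 0 and 47 inclusion reads. Camk2g, its relative, had such a part at 41.5%, 8.13% and 46.9%. In Dst and Camk2d wild type lay between, and in Camk2g heterozygous was the library apart. Of the 12 genes, 7 had higher parts only, 3 lower parts only and 2, Ttn among them, both.

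In the sarcomere, several whole coding exons were skipped more in the homozygous library. The Neb exon was at 47.9% (45.6 to 50.1) in homozygous muscle and at 100% in both others, from 736, 0 and 0 exclusion reads. Nrap, which anchors actin at the ends of the muscle cell, had an exon at 61.3% in homozygous muscle and 100% in both others, from 148, 0 and 0 exclusion reads. Mybpc1, the slow myosin-binding protein C, had an exon at 74.1%, 100% and 92.6%, from 245, 0 and 63 exclusion reads. Its 106 bases are no multiple of 3, so skipping this exon alone would shift the frame. Whether the junction also spans other parts was not tested. Tpm3 had a coding exon at 55.5% in homozygous, 28.8% in heterozygous and 8.47% in wild-type muscle. That order is the reverse of the order of the Tpm3 level given above. The Tpm3 exon is the first or last of each transcript that holds it, so it is not an internal exon that is kept or skipped. It had 595, 1454 and 1033 inclusion reads and 223, 1678 and 5224 exclusion reads, so its higher PSI came with fewer inclusion reads. Synpo2, an actin-binding protein of the Z-disc, had a coding part at 100%, 77.6% and 100%, skipped in heterozygous muscle only. Myh2 and Myh1 parts were called too but are uncertain, since these myosins share sequence.

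The costamere ties the sarcomere to the membrane. Ank3, an ankyrin scaffold of the membrane, had its 87-base exon at 100% (94.6 to 100) in homozygous, 53.0% (45.4 to 60.4) in heterozygous and 77.0% in wild-type muscle. Itga7, the muscle laminin receptor, had its exon at 45.4%, 82.7% and 58.9%, a difference of -37.3 points (-48.0 to -25.4). Itgb1, its partner integrin, had an 81-base coding exon at 54.4%, 33.6% and 28.3%. Mapt, a microtubule protein, had a 54-base coding exon at 78.5%, 100% and 95.8%. Clasp2, which caps growing microtubules, had a part outside the coding transcripts at 20.04%, 78.8% and 100%. Of the 13 genes, 6 had higher and 7 had lower parts only, so the list had no common direction.

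Calcium genes and metabolic enzymes held fewer. Camk2b, the kinase subunit that anchors to actin, had its 114-base exon at 52.0% (44.9 to 59.1) in homozygous, 86.6% (78.3 to 92.0) in heterozygous and 58.2% in wild-type muscle. Tmem38a, a potassium channel of the calcium store, had a 6-base untranslated part at 98.1%, 68.8% and 91.3%. In both, homozygous and wild type were closer to each other than to heterozygous. Pygm, muscle glycogen phosphorylase, had a coding part at 99.3%, 75.5% and 99.4%, from 59, 2437 and 42 exclusion reads, so the heterozygous library alone held that junction in number. Phka1, a subunit of its activating kinase, had a coding exon at 78.7%, 58.2% and 61.3%. Ckm, which buffers ATP as creatine kinase, had 1341, 0 and 0 exclusion reads over an untranslated part, which stayed under the support threshold.

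Targets of the MBNL and CELF proteins, which switch muscle splicing after birth, moved in both directions, 4 genes with higher parts only, 8 with lower only and 2 with both. Tmed2, a protein of transport vesicles, had its 21-base exon at 79.5% (77.3 to 81.6) in homozygous, 48.1% (45.9 to 50.3) in heterozygous and 61.3% in wild-type muscle. Snap23, which drives vesicle fusion, had a 33-base exon at 81.4%, 58.6% and 78.0%. Fxr1, an RNA-binding protein of muscle, had an 87-base coding part at 35.9%, 60.3% and 65.2%. Clcn1, the chloride channel that calms the muscle membrane, had a part in non-coding transcripts only, at 39.7%, 0% and 13.9%.

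Splicing regulators gave 5 genes with higher and 9 with lower parts only. Clk1, a kinase of splicing factors, had a coding exon at 57.9% in homozygous, 83.5% in heterozygous and 96.4% in wild-type muscle. Luc7l2, of the early spliceosome, had a 30-base exon at 63.4%, 42.2% and 60.7%, and its relative Luc7l3 an exon at 37.2%, 11.4% and 17.6%. Srsf7, an exon activator, had a 9-base coding part at 29.97%, 50.6% and 40.4%. Celf1, a CELF protein itself, had an untranslated part at 37.4%, 69.0% and 41.9%. None of these shifts has a replicate, and their intervals cover counting error only.

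**Figure D5:**
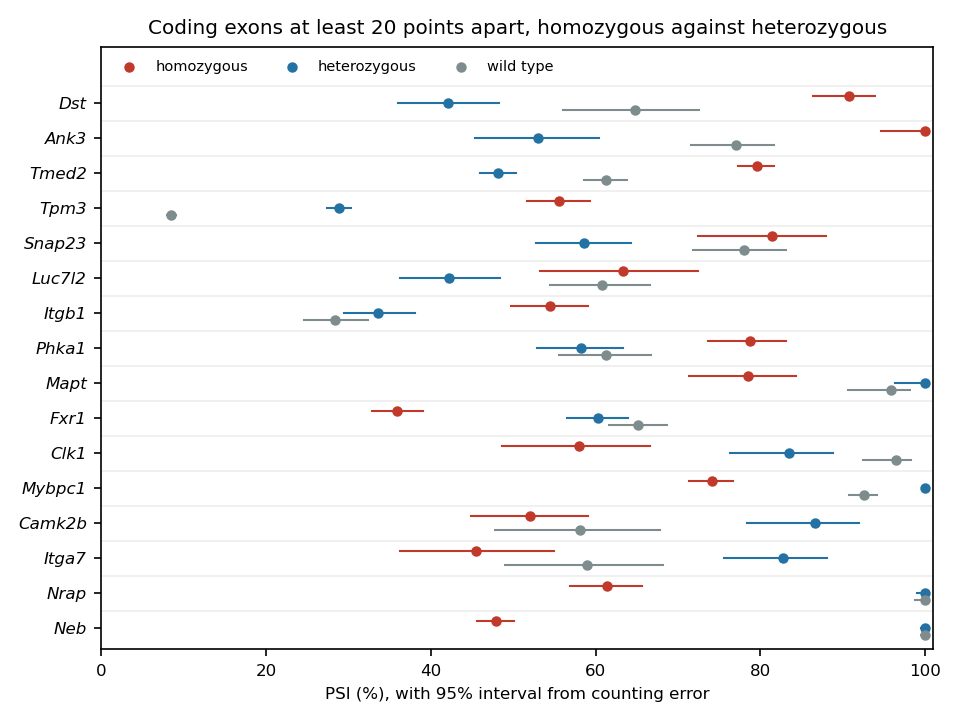
PSI of coding exons or parts of 16 named genes with 95% counting intervals, in the homozygous, heterozygous and wild-type libraries. The Tpm3 exon is the first or last of each transcript that holds it. The upper 8 genes are higher and the lower 8 lower in homozygous than in heterozygous muscle, and wild type lies on either side.

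The 15 genes ranked furthest apart, by the bound of the difference nearest 0, were mostly families with near-identical copies, among them 7 Mup genes, 3 Gm genes, Myh3, Lyz1, Ifi203-ps and the histone gene H2bc9, and are uncertain. Outside such families stood Mpc1, which helps bring pyruvate into mitochondria, with a coding part at 100% in homozygous, 0.884% in heterozygous and 1.49% in wild-type muscle, from 0, 20194 and 16686 exclusion reads. Its inclusion reads, 348, 286 and 401, differed far less than its exclusion reads. The same 15 genes led when only supported junctions were counted.

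Level and splicing calls shared few genes. Of 8748 genes measured both ways, 1252 were called by level (14.3%) and 964 by a part (11.0%). The 119 called both ways were 9.50% of the genes called by level and 12.3% of those called by a part. Over all 8748 genes the shares were 11.0% and 14.3%, a little higher than each.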

How the data were processed

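Skeletal muscle RNA was measured in 3 libraries, 1 per genotype. The deposited table holds raw counts of inclusion and exclusion reads per exonic part, a PSI fraction per library and the difference from wild type, per the file headers. TopHat2 2.0.14, Bowtie 1.1.1, Trimmomatic 0.32, cutadapt 1.1 and the GRCm38 build are listed per the submitters' processing notes, without their roles. The counting program and whether it used strand were not given in the sources used here. PSI was recomputed from the counts as inclusion reads over part length plus 131, divided by that value plus exclusion reads over 131, and equalled the deposited fraction within 5e-07. Parts of merged overlapping genes (40250 parts, 8.12% of inclusion reads in homozygous and 9.67% in heterozygous muscle) were left out.

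Levels are RPM, with log2 ratios on RPM + 1; a log2 ratio given with an interval is of the scaled reads alone, with an exact conditional binomial 95% interval. A PSI interval is the Wilson interval of the read share carried to PSI, and a difference has a Newcombe interval. Without molecular identifiers these intervals cover only the counting error. The level of a gene for the junction rule is the 90th percentile of its inclusion reads per base. No test between genotypes was possible with 1 library each. Members, lists and rules were chosen with earlier results of these data known. Named genes are Rbm20, Ttn, the 12 highest and 12 lowest genes at 20 RPM or more, the 15 genes furthest in PSI and up to 5 members of each list, beside marker genes; some further list members are named for their exons or place in a pathway and were chosen after their values were seen. From the heart list Myl7 and Nppa are named beside the sum of the list. Some list members are not reported here. Parts were placed with GENCODE M21 (GRCm38), and Ttn exons numbered by transcript ENSMUST00000099981.8. Alternatives were other scalings (edgeR 4.0.16 for TMM factors), minimum levels and depths, pseudocounts, thresholds, and rules on dependent parts; setting the median of all genes to 0 and leaving out junctions across genes were added after seeing the data. Software was R 4.3.3, matplotlib 3.10.9, scipy 1.17.1, pandas 2.3.3, numpy 2.4.6 and Python 3.11.15.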

Additional observations from a re-analysis of the deposited data

How the results depend on the processing

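Counts of called genes and parts moved with the settings, and with 1 library per genotype none can be checked against replicates. For gene levels, higher and lower in homozygous muscle, the counts were 132 and 1322. They were 248 and 846 with median-of-ratios scaling, 312 and 752 with TMM scaling, and 310 and 727 with the median of all genes set to 0. A minimum of 1 RPM or none gave 362 and 2085, one of 20 RPM 21 and 431, and a pseudocount of 5 RPM 32 and 535. A 1.5-fold threshold gave 479 and 2760, and a 4-fold one 10 and 150. For exonic parts the counts were 1079 and 899. They were 2624 and 2443 at 10 points, 563 and 422 at 30 points, 5368 and 4600 at 10 reads, 222 and 175 at 500 reads, 7123 and 6273 with no minimum, and 590 and 481 with 1 part per gene. A setting meant to leave out PSI of 0 or 100% left 724 higher and 574 lower parts. It found 355 higher and 325 lower parts at these values. However, 370 higher parts had no exclusion read in homozygous and 345 lower parts none in heterozygous muscle. Some parts at 100% therefore stayed in, and the counts without them would be lower. For Ttn, 34 higher and 82 lower, the lower parts were 142 at 10 points, 45 at 30 points (20 higher) and 36 at 500 reads. They were 1 with a supported junction and 4 with equal exclusion counts taken as 1. In 80 of the 82 heterozygous muscle had no exclusion read, so PSI there was 100%. The 34 higher Ttn parts numbered 29 to 46 under all other settings tried. Of 36 list medians 28 were below 0, and 9 of these turned above 0 with TMM scaling, 7 with median-of-ratios scaling, 8 with the median of all genes set to 0 and 1 with levels per length. The cause of these moves was not tested, beyond the number of genes or parts each setting leaves. No paired analysis was possible because each genotype has 1 library.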
